A study of Mus musculus with 16 samples.

Results

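The 9 genes described here, Hba-a1, Hba-a2, Hbb-bs, Hbb-bt, Alas2, Klf1, Gata1, Car2 and Slc4a1, are genes of the red cell lineage, followed in monocytes sorted from the spleen of newborn mice. They were taken by symbol from the gene count table, where all 9 of them have a row among 25562 genes. By the same Ensembl gene identifiers, 14 of the 40796 regions of the authors' ATAC-seq table belong to them. ATAC-seq cuts accessible DNA with a transposase, so that its reads mark open chromatin. The mice were wild type C57BL/6 animals 7 days old, and the cells were sorted by the surface level of neuropilin-1 (Nrp1), which binds semaphorins and VEGF, into an Nrp1 high and an Nrp1 low fraction. RNA was measured in 3 Nrp1 high and 3 Nrp1 low libraries of 80000 cells each, and open chromatin in 5 and 5 libraries of 50000 cells each. The samples carry the label myeloid-derived suppressor cell, the sample descriptions write pos for Nrp1 high and neg for Nrp1 low, and no source used here names the other gate markers. The label text speaks of pooled RNA and does not say that libraries came from separate animals, so each p-value reflects only how far these libraries spread, which may be technical.

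Red cells carry oxygen on haemoglobin, a tetramer of alpha and beta globin chains, each holding a haem group. In mice the spleen makes red cells in the weeks after birth, next to the bone marrow, and it also removes old ones. GATA1 and KLF1 are transcription factors that switch on globin, haem and membrane genes in erythroid precursors, and ALAS2 is the erythroid form of the first enzyme of haem synthesis.

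Transcripts of all 9 genes were present in all 6 RNA libraries and passed the filter on low counts, and none was called different between Nrp1 high and Nrp1 low monocytes. In the point estimates 8 of the 9 lay lower in Nrp1 high, by up to 0.88 on the log2 scale for Car2, and Slc4a1 lay higher, by 0.83. Of all 15541 genes tested, 7680 lay lower. The 8 include the pairs Hba-a1 and Hba-a2, and Hbb-bs and Hbb-bt. How reads shared within a pair were divided is not stated, so the 8 are not 8 separate measurements. Without Nrp1 low library 3, Hbb-bs lay at 0.06, while the other members kept their sign in all alternatives. The median log2 difference of the 9 was -0.39, the value of Hba-a2, against 0.01 over all 15541 genes tested. In open chromatin, 12 of the 14 regions of the authors' deposited table had a fold above 0, a share of 85.7%, against 38.5% of all its regions. Whether a fold above 0 means more open in Nrp1 high rests on the comparison's name alone, and with the sign turned the shares above 0 in the authors' deposited table would be 14.3 and 61.5%.

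The promoters of 7 of the 9 genes are held by RefSeq on GRCm38.p6, in windows that end at the base before the annotated start. Those of the 4 adult globin genes and of Klf1 are shown because the globin genes are pairs of copies, which bears on how their reads were counted, and because an open region of the authors' table lies over the promoters of Hbb-bs, Hbb-bt and Klf1. Each is the 250 bases before the start on the gene's strand, 5′ to 3′, and capitals mark the CACCC box, the CCAAT box, the GATAA site and the TATAA box on either strand.
Hbb-bs, chr7:103827929-103828178, minus strand: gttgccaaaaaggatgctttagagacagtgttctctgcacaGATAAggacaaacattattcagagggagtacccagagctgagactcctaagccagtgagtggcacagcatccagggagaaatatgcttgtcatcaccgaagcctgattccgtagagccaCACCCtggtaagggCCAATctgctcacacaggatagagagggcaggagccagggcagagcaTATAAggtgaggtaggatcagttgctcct
Hbb-bt, chr7:103813924-103814173, minus strand: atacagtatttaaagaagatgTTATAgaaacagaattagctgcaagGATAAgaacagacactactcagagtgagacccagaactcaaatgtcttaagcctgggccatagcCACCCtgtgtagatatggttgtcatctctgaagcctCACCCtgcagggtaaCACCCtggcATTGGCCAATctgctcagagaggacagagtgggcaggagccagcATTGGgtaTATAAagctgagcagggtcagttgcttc
Hba-a1, chr11:32283422-32283671, plus strand: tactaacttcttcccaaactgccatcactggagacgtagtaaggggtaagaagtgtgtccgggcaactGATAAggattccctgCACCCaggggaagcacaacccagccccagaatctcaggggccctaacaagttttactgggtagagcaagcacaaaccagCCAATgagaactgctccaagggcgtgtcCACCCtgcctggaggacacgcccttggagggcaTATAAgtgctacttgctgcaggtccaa
Hba-a2, chr11:32296242-32296491, plus strand: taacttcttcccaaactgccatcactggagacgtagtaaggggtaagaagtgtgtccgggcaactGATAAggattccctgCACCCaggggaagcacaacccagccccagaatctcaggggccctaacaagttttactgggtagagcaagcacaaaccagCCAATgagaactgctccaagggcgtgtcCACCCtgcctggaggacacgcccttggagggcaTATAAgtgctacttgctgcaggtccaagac
Klf1, chr8:84901732-84901981, plus strand: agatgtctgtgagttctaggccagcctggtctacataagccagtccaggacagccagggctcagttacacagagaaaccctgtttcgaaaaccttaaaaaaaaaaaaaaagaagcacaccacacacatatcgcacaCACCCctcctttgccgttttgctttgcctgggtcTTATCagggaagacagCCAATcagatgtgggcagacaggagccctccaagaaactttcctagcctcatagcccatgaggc
In the printed windows no motif shares a base with another. KLF1 is known to bind CACCC boxes and GATA1 is known to bind sites with GATAA in erythroid promoters. Of all 32851 promoters of this length, the CACCC box is in 52.0%, the CCAAT box in 33.8%, the GATAA site in 22.6% and the TATAA box in 22.8%. The Hba-a1 and Hba-a2 windows are the same sequence shifted by 3 bases, identical over all 247 bases they share. Hbb-bs and Hbb-bt, compared without gaps, match at 51.0% of 249 bases. The Hbb-bs window holds each of the 4 motifs 1 time, while that of Hbb-bt holds the CACCC box 3 times, the CCAAT box 3 times, the TATAA box 2 times and the GATAA site 1 time. The Klf1 window holds each of the others 1 time and no TATAA box. Gata1 and Alas2 have windows that no region of theirs overlaps. These matches are descriptions of letters, not of bound sites.

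Total counts were 28440098 to 31428419 in the Nrp1 high and 23395363 to 35127433 in the Nrp1 low RNA libraries. Levels are CPM, counts scaled by TMM-adjusted library sizes, and they are not corrected for gene length. Genes of the mitochondrial genome held 3.01, 1.29 and 2.37% of counts in Nrp1 high libraries 1 to 3, against 0.784, 1.57 and 1.11% in Nrp1 low libraries 1 to 3. Nrp1 itself, the sorted antigen, had a log2 difference of 1.32 ± 0.36 (SE), in the direction of the labels, with an unadjusted p of 0.00594 and an edgeR adjusted p of 0.259. Markers of the labelled cell type were present: all 10 monocyte markers were tested, with summed levels of 25926 to 34785 CPM in Nrp1 high, against 31078 to 46717 CPM in Nrp1 low. By edgeR 0 of the 10 were called, against 0.682% of all genes tested, and 6 of 10 lay above 0, with a median log2 difference of 0.16. At an unadjusted p under 0.05 there were 2 higher and 1 lower, against 4.50 and 6.72% of all genes. The groups did not overlap in 3 higher and 1 lower, against 9.51 and 10.8% of all genes. The most abundant of the 10 markers, Lyz2, lysozyme, averaged 24542 CPM in Nrp1 high, against 36790 CPM in Nrp1 low, and carries the sum. Ly6c2, the classical monocyte antigen, averaged 2016 CPM in Nrp1 high, against 2067 CPM in Nrp1 low. Ccr2, the chemokine receptor of these cells, averaged 809.0 CPM in Nrp1 high, against 462.8 CPM in Nrp1 low, without overlap, and was named after its values were seen. Cd14, named likewise, went the other way without overlap, at 18.9 CPM in Nrp1 high against 47.4 CPM in Nrp1 low. In pools of sorted cells, fewer cells of a type and less RNA per cell cannot be told apart.

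The genes of the alpha globin chain come first. Hba-a1 (ENSMUSG00000069919, chromosome 11, 32283672 to 32284486 on GRCm38.p6) had 1535, 1795 and 1388 CPM in Nrp1 high libraries 1 to 3, against 2115, 1448 and 2660 CPM in Nrp1 low libraries 1 to 3. The groups overlap, since Nrp1 low library 2 lies below 2 of the Nrp1 high libraries. The mean was 1573 ± 206.0 CPM in Nrp1 high, against 2074 ± 606.7 CPM in Nrp1 low (SD, n = 3 each), and the log2 difference was -0.40 ± 0.26 (SE; edgeR adjusted p = 0.506, 95% interval -1.01 to 0.21). Its copy Hba-a2 (ENSMUSG00000069917, 32296492 to 32297310 on the same chromosome) had 950.6, 1227 and 904.9 CPM in Nrp1 high, against 1406, 936.0 and 1708 CPM in Nrp1 low. Its log2 difference was -0.39 ± 0.27 (SE; edgeR adjusted p = 0.513). Without Nrp1 low library 3 the log2 difference was -0.18 for Hba-a1 and -0.19 for Hba-a2. The split between the copies was steady: of the alpha counts, Hba-a1 took 61.8, 59.4 and 60.5% in Nrp1 high and 60.1, 60.7 and 60.9% in Nrp1 low. No source used here says how reads shared by the copies were divided, so the level of a single copy is uncertain.

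The genes of the beta globin chain showed another order of libraries. Hbb-bs (ENSMUSG00000052305, chromosome 7, 103826523 to 103827928), the major adult beta gene in this strain, had 920.1, 651.1 and 695.9 CPM in Nrp1 high, against 829.2, 619.8 and 1266 CPM in Nrp1 low. Nrp1 low library 3 was the highest and Nrp1 low library 2 the lowest, so all 3 Nrp1 high libraries lie within the range of Nrp1 low. The log2 difference was -0.26 ± 0.29 (SE; edgeR adjusted p = 0.672, 95% interval -0.93 to 0.42), and it was 0.06 without Nrp1 low library 3. Hbb-bt (ENSMUSG00000073940, 103812524 to 103813923), its neighbour, had 460.5, 352.0 and 357.7 CPM in Nrp1 high, against 450.8, 333.5 and 647.0 CPM in Nrp1 low. Its log2 difference was -0.29 ± 0.27 (SE; edgeR adjusted p = 0.610), and -0.01 without Nrp1 low library 3. Of the beta counts, Hbb-bs took 66.6, 64.9 and 66.1% in Nrp1 high and 64.8, 65.0 and 66.2% in Nrp1 low. As for the alpha copies, the division of shared reads is not stated, so the level of a single beta gene is uncertain.

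Together the 4 adult globin genes took 0.417, 0.419 and 0.364% of all counts in Nrp1 high, against 0.430, 0.342 and 0.560% in Nrp1 low. The 95% Wilson intervals reach at most 0.00282 percentage points to either side and cover counting error only. Summed, the globins stood at 3866, 4025 and 3347 CPM in Nrp1 high, against 4801, 3338 and 6280 CPM in Nrp1 low. The difference was -0.32 on the log2(CPM + 1) scale, with an exact permutation p of 0.4, two-sided. The smallest p this design allows is 0.1. Without Nrp1 low library 2 the difference was -0.56 and without Nrp1 low library 3 it was -0.10.

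The balance of alpha to beta chains varied between libraries of the same fraction. Alpha counts were 1.80, 3.01 and 2.18 times the beta counts in Nrp1 high, against 2.75, 2.50 and 2.28 times in Nrp1 low, without correction for length. The lowest and the highest ratio were both in Nrp1 high, in libraries 1 and 2. The ratios averaged 2.33 ± 0.62 in Nrp1 high and 2.51 ± 0.23 in Nrp1 low (SD, n = 3 each; exact permutation p = 0.6, two-sided, on the log2 ratio).

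**Figure D1:**
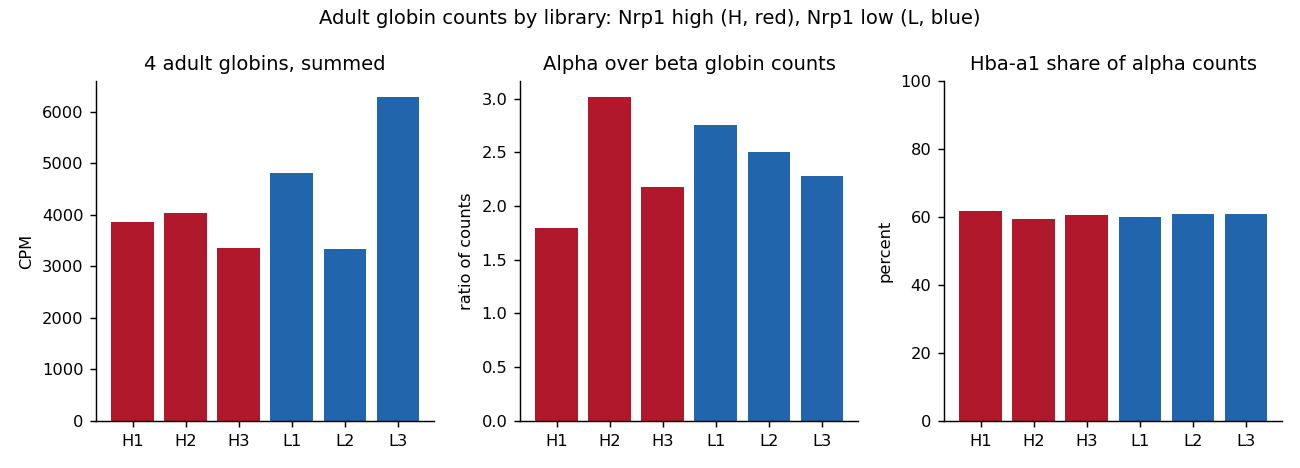
Summed CPM of the 4 adult globin genes, the ratio of alpha to beta globin counts, and the share of Hba-a1 in the alpha counts (percent), with a bar for each RNA library (H Nrp1 high, L Nrp1 low). The summed level and the ratio differ between libraries of the same group, while the Hba-a1 share lies between 59.4 and 61.8% in all 6.

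The embryonic gene Hba-x and the theta globin genes Hbq1a and Hbq1b were at or near 0. Hba-x, the embryonic zeta-like alpha gene, was listed at 0 in 5 libraries and at 0.333 CPM in Nrp1 low library 3. A count of 0 allows up to 0.0916 to 0.125 CPM, taking 3 counts per library as the limit. Hbq1a was at 0 in Nrp1 high libraries 1 and 3 and in Nrp1 low libraries 1 and 2, and Hbq1b averaged 0.991 CPM in Nrp1 high, against 1.24 CPM in Nrp1 low. The embryonic beta-like genes Hbb-y and Hbb-bh1 were not found by these symbols in the count table, so their RNA could not be judged. The same holds for Ahsp, the alpha globin chaperone.

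Alas2 (ENSMUSG00000025270, chromosome X, 150547417 to 150570622) varied little within each group. It had 22.7, 28.4 and 25.2 CPM in Nrp1 high, against 31.4, 29.8 and 35.3 CPM in Nrp1 low. All 3 Nrp1 high libraries lie below all 3 Nrp1 low libraries, by a narrow gap. The means were 25.4 ± 2.86 and 32.2 ± 2.80 CPM in Nrp1 high and Nrp1 low (SD, n = 3 each), a log2 difference of -0.34 ± 0.22 (SE; edgeR adjusted p = 0.499). The exact permutation p was 0.1, two-sided, the smallest that 3 against 3 libraries can give.

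The transcription factors Klf1 and Gata1 had a similar order of libraries. Klf1 (ENSMUSG00000054191, chromosome 8, 84901982 to 84905291) had 20.8, 41.0 and 24.4 CPM in Nrp1 high, against 59.9, 31.9 and 41.4 CPM in Nrp1 low. Gata1 (ENSMUSG00000031162, chromosome X, 7959260 to 7976663) had 12.6, 21.7 and 11.8 CPM in Nrp1 high, against 28.6, 19.1 and 21.6 CPM in Nrp1 low. In both genes Nrp1 low library 1 was the highest of all and library 2 the highest of Nrp1 high, which overlapped Nrp1 low through that library. Each of these was common in the table. Of all genes tested, 27.8% were highest in Nrp1 low library 1, and 6014 of 15541 had library 2 as the highest of Nrp1 high. The log2 differences were -0.63 ± 0.34 for Klf1 and -0.59 ± 0.32 for Gata1 (SE; edgeR adjusted p = 0.465 for each). Without Nrp1 low library 1, the difference of Klf1 was -0.35 and that of Gata1 -0.40.

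Car2 (ENSMUSG00000027562, chromosome 3, 14886269 to 14900770) encodes carbonic anhydrase 2, which turns carbon dioxide into bicarbonate in red cells and is also made by other cells. It had 119.1, 239.4 and 160.2 CPM in Nrp1 high, against 448.2, 250.1 and 255.4 CPM in Nrp1 low. The groups did not overlap, though Nrp1 high library 2 came close to Nrp1 low libraries 2 and 3. The means were 172.9 ± 61.2 CPM in Nrp1 high, against 317.9 ± 112.9 CPM in Nrp1 low (SD, n = 3 each), 1.84-fold lower in Nrp1 high. The log2 difference of -0.88 ± 0.33 (SE) had an unadjusted p of 0.0285, did not pass over all genes (edgeR adjusted p = 0.420) and was -0.55 without Nrp1 low library 1. The exact permutation p was 0.1.

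Slc4a1 (ENSMUSG00000006574, chromosome 11, 102348820 to 102365281) encodes band 3, the anion exchanger of the red cell membrane, and was the member with the opposite direction. It had 38.2, 24.3 and 33.2 CPM in Nrp1 high, against 6.26, 22.2 and 25.4 CPM in Nrp1 low. Nrp1 low library 1 was far below the other 5, which lie between 22.2 and 38.2 CPM, and the groups overlap through Nrp1 high library 2 and Nrp1 low library 3. The log2 difference of 0.83 ± 0.48 (SE; edgeR adjusted p = 0.472, 95% interval -0.28 to 1.94) was 0.42 without Nrp1 low library 1. That library had the lowest mitochondrial share of the counts, 0.784%, and the 2 libraries with the highest Slc4a1, Nrp1 high libraries 1 and 3, had the highest shares, 3.01 and 2.37%. The part of the mitochondrial share in this result was not tested.

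**Figure D2:**
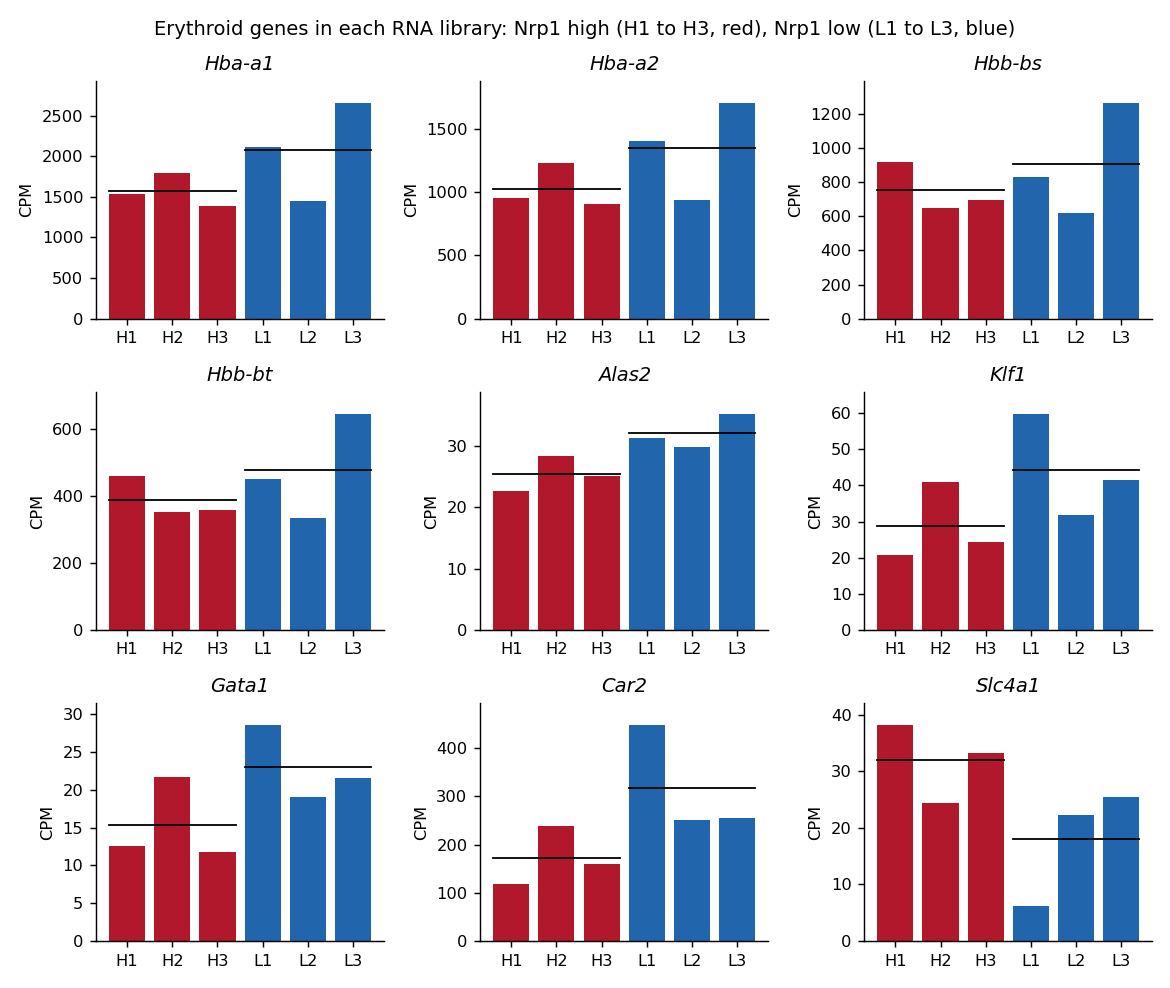
CPM at TMM-scaled library sizes of the 9 erythroid genes, with a bar for each RNA library (H1 to H3 Nrp1 high, L1 to L3 Nrp1 low) and a black line at each group mean; each panel has its own axis from 0. Klf1, Gata1 and Car2 share their highest library, L1, in which Slc4a1 is at its lowest, 6.26 CPM. Of all genes tested, 27.8% are highest and 34.2% lowest in L1.

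By edgeR's quasi-likelihood test 0 of the 9 genes were called at adjusted p under 0.05, against 0.682% of all genes tested, made up of 0.676% lower and 0.00643% higher in Nrp1 high. At an unadjusted p under 0.05 there was 1, Car2, lower, against 6.72% of all genes. DESeq2 and limma-voom also called 0 of the 9. The groups did not overlap for 2 of the 9, Alas2 and Car2, both lower in Nrp1 high. Over all genes tested, 10.8% lay lower without overlap and 20.3% did not overlap in either direction, so a count of 2 of 9 is near the background. Missing the threshold does not show equal levels: the 95% interval of Klf1 ran from -1.41 to 0.16 on the log2 scale. With library totals in place of TMM, which shifted the log2 differences of all genes by a median of 0.19, that of Hbb-bs was -0.05, that of Alas2 -0.15, that of Car2 -0.68 and that of Slc4a1 1.01.

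How alike the members were was measured as the root mean square distance between their log2(CPM + 1) profiles over the 6 libraries, each centred on its own mean. The copies were closest, Hba-a1 to Hba-a2 at 0.04 and Hbb-bs to Hbb-bt at 0.05. Klf1 lay 0.13 from Gata1 and 0.18 from Car2, closer than Klf1 lay to any globin (0.31 to 0.57). Slc4a1 was farthest from all others, at 0.86 to 1.36. Beyond the pairs of copies and Slc4a1, the distances did not part the genes into clear groups. Gata1 lay 0.24 from Car2, while Hba-a1 lay only 0.20 from Hbb-bt. Alas2 was nearest to Hba-a1 and Hba-a2 (0.21 each). These profiles share their 6 libraries and their depth.

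Outside the 9, the 8 genes nearest to Alas2 among 9386 candidates of at least 5 CPM included Phax, Mvd, Phf10, Galns, Ftsj3, Stx2 and Yipf6, at distances of 0.05 to 0.07. Those nearest to Hbb-bs were Cox6c, Rpl36al, Ifi27l2a, Snrpg, Cd52, Rpl35, Dynll1 and Hint3, at 0.03 to 0.08. Cox6c, a subunit of cytochrome c oxidase, had 284.5, 209.3 and 218.1 CPM in Nrp1 high, against 266.2, 190.5 and 392.6 CPM in Nrp1 low. None of the genes named here belongs to the erythroid lists used here.

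**Figure D3:**
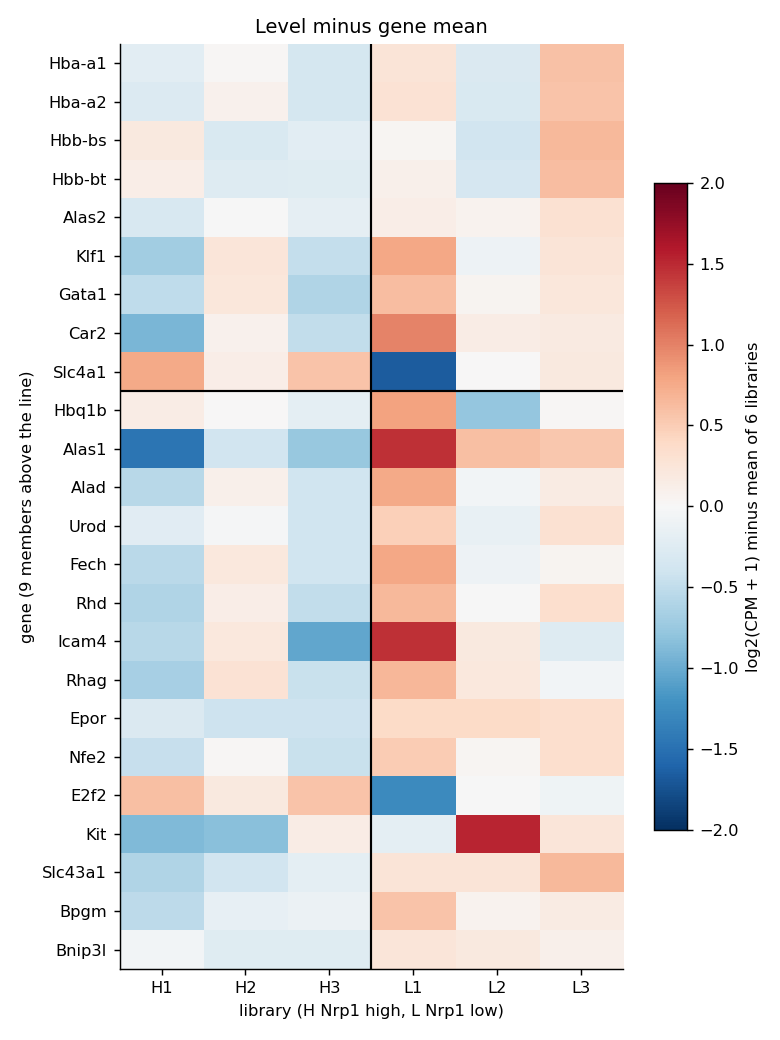
Log2(CPM + 1) minus the mean of the 6 libraries, as colour, for the 9 erythroid genes (above the line) and genes of other erythroid lists named in the text (below it), in libraries H1 to H3 (Nrp1 high) and L1 to L3 (Nrp1 low). Slc4a1 and E2f2 are lowest in L1, where Klf1, Car2, Alas1 and Icam4 are at their highest.

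Of 72 further erythroid genes, 67 were found in the count table and 64 were tested. By edgeR 0 of the 64 were called (adjusted p under 0.05), with 1 higher and 6 lower at an unadjusted p under 0.05, against 4.50 and 6.72% of all genes tested. DESeq2 called 1, Alas1, and limma-voom 0. The groups did not overlap in 1 higher and 8 lower genes, against 9.51 and 10.8% of all genes. The median log2 difference of the 64 was -0.13.

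Haem synthesis and iron uptake held the gene with the lowest p of these lists, Alas1. Of its 15 tested genes 11 lay below 0 and 4 above, with a median of -0.28. Alas1, the housekeeping form of the enzyme that Alas2 encodes in red cells, had 64.6, 138.0 and 105.4 CPM in Nrp1 high, against 497.2, 274.4 and 261.1 CPM in Nrp1 low. The groups are well apart and Nrp1 low library 1 is the highest, with a log2 difference of -1.75 ± 0.36 (SE; edgeR adjusted p = 0.103; DESeq2 adjusted p = 0.000285). The later enzymes were closer together: Alad, porphobilinogen synthase, averaged 52.5 against 79.4 CPM in Nrp1 high and Nrp1 low, and Fech, which inserts iron, 74.7 against 105.5 CPM. Urod, uroporphyrinogen decarboxylase, had a log2 difference of -0.44. The edgeR adjusted p of these 3 lay between 0.446 and 0.485.

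Genes of the red cell membrane and skeleton were split, 9 of 18 above and 9 below 0, with a median of 0.05. Rhd and Rhag, of the Rh complex, averaged 31.3 and 14.2 CPM in Nrp1 high, against 49.2 and 20.8 CPM in Nrp1 low. Icam4, an adhesion molecule of erythroblasts, averaged 2.08 CPM in Nrp1 high, against 5.26 CPM in Nrp1 low. Their edgeR adjusted p lay between 0.445 and 0.496. The skeleton gene Ank1, named after its values were seen, had 2.10 CPM in Nrp1 low library 1, its lowest of the 6 libraries, as Slc4a1 did. In that library 7 of these 18 genes were at their lowest, 38.9%, against 34.2% of all genes tested, so a low value there was common in the table.

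Among the erythroid transcription factors and receptors, 7 of 15 lay above and 8 below 0, with a median of -0.02. The groups did not overlap in 1 higher and 2 lower of the 15, against 9.51 and 10.8% of all genes tested. Epor, the erythropoietin receptor, had 6.10, 5.47 and 5.54 CPM in Nrp1 high, against 10.4, 10.3 and 9.94 CPM in Nrp1 low. Its libraries were tight within each group and did not overlap between them, with a log2 difference of -0.84 ± 0.27 (SE; edgeR adjusted p = 0.350). Nfe2, a factor of red cells and megakaryocytes, averaged 298.1 against 446.5 CPM in Nrp1 high and Nrp1 low without overlap, and E2f2, a cell cycle factor of late erythroblasts, 202.6 against 114.5 CPM without overlap. Kit, the stem cell factor receptor, averaged 5.42 against 13.4 CPM, with 24.2 CPM in Nrp1 low library 2. These last 3 had edgeR adjusted p between 0.421 and 0.442.

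Of the genes of red cell cytosol and maturation 11 of 15 lay below 0, with a median of -0.30. In 5 of the 15 the groups did not overlap and Nrp1 high was lower, against 10.8% of all genes tested. Slc43a1, an amino acid transporter, averaged 6.20 CPM in Nrp1 high, against 11.4 CPM in Nrp1 low. Bpgm, which makes the bisphosphoglycerate that loosens oxygen from haemoglobin, averaged 16.1 against 23.8 CPM in Nrp1 high and Nrp1 low, and Bnip3l, which clears mitochondria from reticulocytes, 187.0 against 240.1 CPM. Their edgeR adjusted p lay between 0.374 and 0.445.

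**Figure D4:**
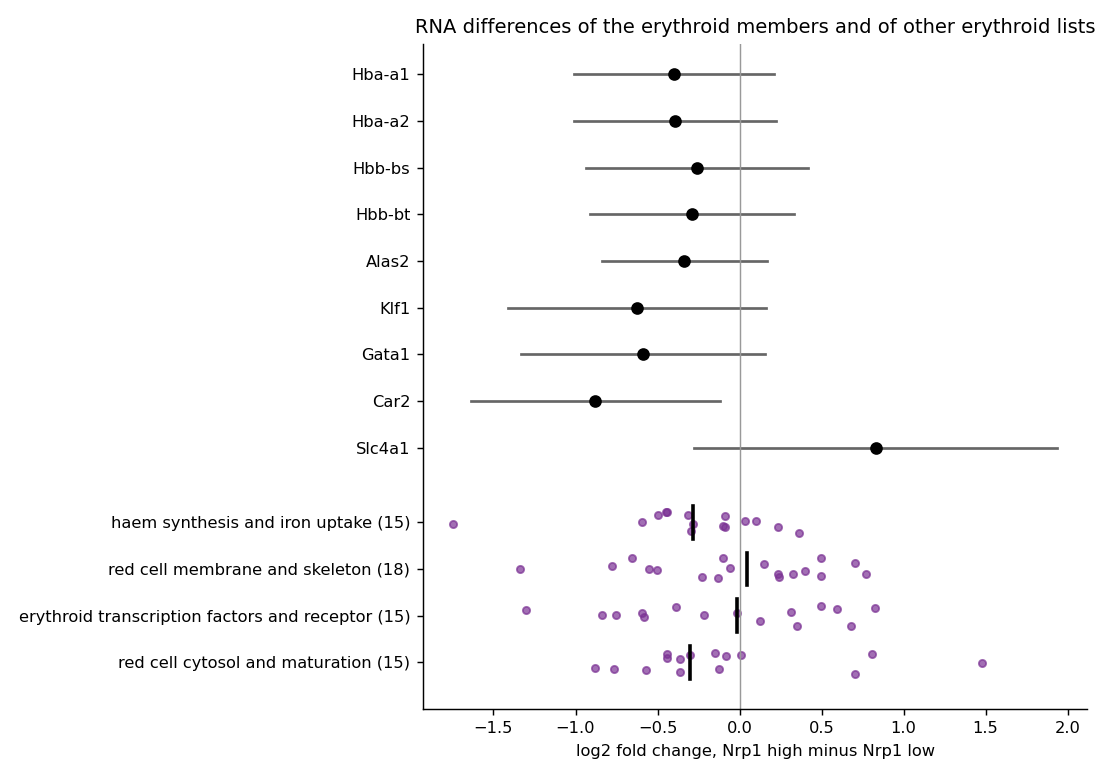
Log2 fold change, Nrp1 high minus Nrp1 low, of the 9 erythroid genes (black points with 95% intervals, not adjusted for the number of genes) and of the tested genes in 4 further erythroid lists (purple points, number of genes in brackets, black bar at the median). All intervals of the 9 include 0 except that of Car2, and the lists spread to both sides of 0.

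Markers of other cells were measured in the same libraries. Gata1 and Nfe2 are also made by megakaryocytes, and Gata1 by mast cells, basophils and eosinophils. The 15 megakaryocyte and platelet markers summed to 22.8 to 30.7 CPM in Nrp1 high, against 83.9 to 99.0 CPM in Nrp1 low, and 3 of 14 tested fell (edgeR adjusted p under 0.05), against 0.676% of all genes. Ppbp, a platelet chemokine, averaged 1.30 CPM in Nrp1 high, against 15.3 CPM in Nrp1 low. Pf4 averaged 5.39 CPM in Nrp1 high, against 19.0 CPM in Nrp1 low, and was not called (edgeR adjusted p = 0.170). Gp6, the platelet collagen receptor, was listed at 0 in all 3 Nrp1 high libraries and at 0.125 to 0.915 CPM in Nrp1 low. It did not pass the filter on low counts and is named outside the rule given below. The 7 eosinophil markers summed to 21.5 to 24.98 CPM in Nrp1 high, against 42.9 to 72.9 CPM in Nrp1 low, with 0 of 6 called by edgeR and 4 lower at an unadjusted p under 0.05, against 6.72% of all genes. Basophil and mast cell markers summed to 33.1 to 59.2 CPM in Nrp1 high, against 71.3 to 124.0 CPM in Nrp1 low. Of the 7 tested, 5 lay below 0 and 2 above, and 1, Hdc, fell, at 9.32 CPM in Nrp1 high against 37.3 CPM in Nrp1 low. Prss34 averaged 16.2 CPM in Nrp1 high, against 33.8 CPM in Nrp1 low, with overlap (edgeR adjusted p = 0.432). The 13 neutrophil markers summed to 9043 to 11686 CPM in Nrp1 high, against 50251 to 81825 CPM in Nrp1 low, and 9 of 13 fell. Markers of red pulp and island macrophages, cells that nurse erythroblasts and take up old red cells, summed to 510.5 to 541.5 CPM in Nrp1 high, against 733.9 to 822.4 CPM in Nrp1 low, and 0 of 15 were called by edgeR, with 7 lower and 1 higher at an unadjusted p under 0.05, against 6.72 and 4.50% of all genes. The B cell, T cell and stem cell lists had 0 of 6, 0 of 6 and 0 of 5 markers called by edgeR. At an unadjusted p under 0.05 there were 0 B cell and 0 T cell markers, and 2 stem cell markers higher and 1 lower. Their median log2 differences were -0.13, -0.08 and -0.18 for the B cell, T cell and stem cell lists. The part of these cells in the levels of the 9 genes was not tested.

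Open chromatin was read from the authors' deposited table, which lists for each region a log2 fold with its p-value and FDR, and no value per library. Its direction is uncertain: the labels name a comparison of high against low made with DESeq2, the table is named for edgeR, and no column states which fraction is on top. The RNA does not settle it. At the 89 genes with regions whose RNA was called lower in Nrp1 high, the authors' deposited table has 188 regions, 97 with a fold above 0, and of those under an FDR of 0.05, 20 lie above 0 and 3 below. At Nrp1 itself the authors' deposited table has 8 regions, 4 with a fold above 0 and 4 below. Of those under an FDR of 0.05, 2 lie above 0 and 1 below. Folds are therefore given by sign, as the authors' deposited table has them. The 14 regions belong to 7 genes, since none is assigned to Hba-a1 or Hba-a2. The promoter windows of these copies are identical over the bases they share, so reads there may fit both copies. The lack of a region at them therefore does not show closed chromatin. Of the 14, 2 had an FDR under 0.05 in the authors' deposited table, both above 0. Over all regions, the authors' deposited table has 7.55% passing, 2.56% above 0 and 4.99% below. In the authors' deposited table the median log2 fold of the 14 was 0.32, against -0.09 over all 40796 regions. The regions of a gene share its neighbourhood and the same libraries, so they are not independent.

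The Car2 region of the authors' deposited table, chr3:14886448-14886847, spans a transcript start and had a log2 fold of 0.51 (FDR 0.0386). At Hbb-bs the authors' deposited table lists chr7:103827778-103828177 over the start, with a log2 fold of 0.21 (FDR 0.428), which covers 249 of the 250 promoter bases printed above. The other Hbb-bs region, chr7:103825926-103826325, lies past the 3′ end of the gene, 198 bases from it, and had 0.56 (FDR 0.0474) in the authors' deposited table. The Hbb-bt start region, chr7:103813717-103814116, covers 193 of its 250 printed bases and had 0.28 (FDR 0.322) in the authors' deposited table.

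At Klf1 the start region chr8:84901641-84902040, which covers all 250 printed bases, had a log2 fold of 0.17 (FDR 0.644) and the region in the gene, chr8:84903154-84903553, had -0.06 (FDR 0.799) in the authors' deposited table. The Slc4a1 start region, chr11:102364911-102365310, had 0.52 with an FDR of 0.0540 in the authors' deposited table, just outside the threshold. Its other regions in the authors' deposited table, in the gene and past its end, had 0.17 and 0.36 (FDR 0.604 and 0.296). In the authors' deposited table Gata1 had regions at 0.38 in an intron and 0.59 in intergenic DNA (FDR 0.475 and 0.217). Alas2 had 0.27, 2215 bases past a transcript start, and 0.62 shortly before another start (FDR 0.548 and 0.243), and -0.17 in intergenic DNA (FDR 0.813), all as the authors' deposited table gives them.

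**Figure D5:**
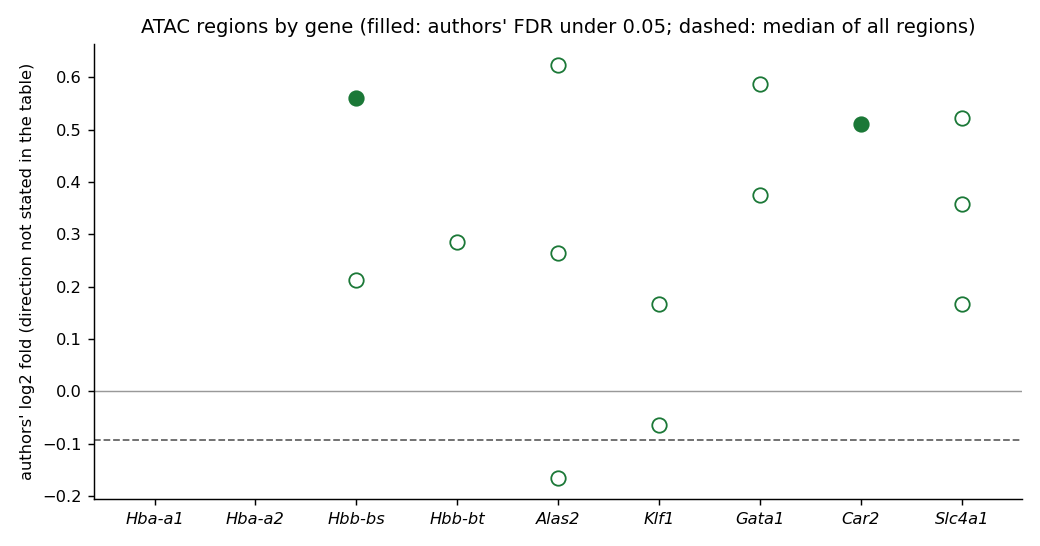
Authors' log2 fold, named for Nrp1 high against Nrp1 low but with no stated direction, of the 14 ATAC regions by gene, with a point per region, filled where the authors' FDR is under 0.05; the dashed line is the median of all regions, -0.09. Only 2 regions lie below 0, one at Alas2 and one at Klf1, and Hba-a1 and Hba-a2 have no region.

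Neighbouring regions fill in the globin loci, chosen after their values were seen. Beside the alpha genes, the authors' deposited table lists chr11:32298490-32298889, assigned to Hbq1a, 1180 bases past the 3′ end of Hba-a2, with a log2 fold of 0.67 (FDR 0.0336). The matching place after Hba-a1, chr11:32285218-32285617, assigned to Hbq1b, lies 732 bases past its end and had 0.46 (FDR 0.185) in the authors' deposited table. Introns of the neighbouring gene Nprl3 are known to hold the alpha globin enhancers, and of the 6 regions that the authors' deposited table assigns to Nprl3 none passed an FDR of 0.05, with folds from -0.52 to 0.29. Upstream of the beta genes, where the locus control region lies, the authors' deposited table assigns 3 regions to Hbb-y, with log2 folds of 0.42, 0.06 and 0.08 (FDR 0.0810, 0.805 and 0.821).

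Over the further erythroid genes, the authors' deposited table holds 156 regions of 63 genes, with 63.5% of folds above 0, against 38.5% of all regions, and a median fold of 0.08, against -0.09. At an FDR under 0.05 the authors' deposited table has 7.05% of these regions, against 7.55% of all regions. By direction, the authors' deposited table has 9 of the 156 above 0 and 2 below at that FDR, against 2.56 and 4.99% of all regions. Those above 0 in the authors' deposited table include the start region of Epb42, a membrane skeleton protein, at 0.70 (FDR 0.00155), an intronic region of Tent5c at 0.68 (FDR 0.00131), and 2 intronic regions of Sox6, a factor that silences embryonic globin, at 1.55 and 1.17 (FDR 0.00565 and 0.0105). A region 1490 bases past a start of Hemgn, a nuclear protein of erythroid cells, was at -0.88 (FDR 0.00441) in the authors' deposited table, while another at a Hemgn start was at 0.70 (FDR 0.0342). In RNA, Epb42 had a log2 difference of 0.49 (edgeR adjusted p = 0.517). These genes were named after their values were seen.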

How the data were processed

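RNA came from 3 Nrp1 high and 3 Nrp1 low libraries of a low-input kit, read in pairs, per the labels' protocols. The authors deposited estimated counts per gene on GRCm38; HISAT2 and StringTie stand without roles in the submitters' processing notes. All values were whole numbers; if they derive from coverage, a count has no certain scale and the intervals are too narrow. For ATAC-seq the authors deposited per region a log2 fold, with its p-value and FDR; DiffBind and edgeR are among the named tools. No source used here tells of a shift for the transposase, of strand, or of the libraries that entered.

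Genes passing filterByExpr were scaled by TMM; edgeR 4.0.16 in R 4.3.3 (quasi-likelihood, robust, fraction as the term) tested all 15541, with Benjamini-Hochberg adjustment and a call under 0.05. Standard errors are the log2 difference divided by the root of its F statistic. The code was tested on simulated data. Exact permutation tests, two-sided, took log2(CPM + 1). Named are all 9 members, up to 4 genes of lowest p per erythroid list, the 2 most abundant markers per list and the 8 genes nearest to Alas2 and to Hbb-bs. A few genes that this rule picks are not reported here. Alternatives were other scalings and filters, DESeq2 1.42.0, limma-voom (limma 3.58.1), a replicate block, globins left out of library sizes and each library left out. Members and lists were chosen with earlier results of these data known. Positions and promoters are RefSeq's, on GRCm38.p6.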

Additional observations from a re-analysis of the deposited data

How the results depend on the processing

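The count of the 9 genes called stayed at 0 in all 15 alternatives. The count over all genes was 106, against 403 with DESeq2 and 0 (943 at an unadjusted p under 0.05) with the replicate block. It ranged from 0, without Nrp1 high replicate 3, to 125 over the left-out libraries, with 28 and 50 without Nrp1 high replicates 1 and 2 and 29 without Nrp1 low replicate 3. Further erythroid genes called numbered 0, and 1 with DESeq2. Member regions past the authors' FDR in the authors' deposited table numbered 2, and 0 at an FDR under 0.01. Log2 differences that changed sign over left-out libraries ranged from -0.474 to 0.0578 for Hbb-bs, -0.844 to 0.71 for Hbq1b, -0.186 to 0.17 for Ly6c2 and -0.394 to 0.0457 for Cd34. With library totals Ly6c2 was at 0.17, Adgre1 at 0.0089 and Cd34 at 0.0151. Hbq1b was at 0.16 with limma-voom and 0.19 with the replicate block. The cause was not tested. Replicate numbers gave no sign of pairing: deviations from the group means correlated by -0.34, -0.39 and 0.03 between same-numbered libraries, and no library correlated best with its own number. With 3 libraries a group, these values cannot show whether same-numbered libraries came from the same animals. In the replicate block the summed globin difference is -0.32 by construction, with an exact sign-flip p of 0.5 (smallest possible 0.25). It ranged from -0.56 to -0.10 over the left-out libraries. With 3 libraries a group, only large differences could pass.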
